A study of Mus musculus with 2 samples.

Results

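The Trim, Fbxo and Asb genes encode substrate-recognising parts of ubiquitin ligases, and they were taken from the table of gene activity by symbol alone: every entry whose symbol begins with Trim, Fbxo or Asb followed by a digit, without Asb4. This gave 156 RefSeq entries of 123 gene symbols, out of 24165 entries of 20128 symbols in the whole table. Trim contributed 86 entries of 68 symbols, Fbxo 47 entries of 37, and Asb 23 entries of 18. One of the Asb symbols, Asb17os, is a noncoding transcript on the strand opposite Asb17. Trim30e-ps1 is a noncoding pseudogene entry, and 5 member entries in all are noncoding.

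The cells were C2C12, a mouse myoblast line in wide use; myoblasts are the proliferating precursors that fuse into muscle fibres. 2 libraries of untreated cells, grown in medium with 10% fetal bovine serum to 80% confluency, were analysed by global run-on sequencing (GRO-seq), in which polymerases already on the DNA extend their RNA in isolated nuclei with bromouridine and the labelled RNA is sequenced. The only group is the untreated myoblast, so there is no treated, differentiated or atrophied sample to set it against. The authors pooled both libraries and gave 1 value for each entry: the gene activity in RPKmM, the reads on the sense strand from 1 kb after the transcription start to the transcript end, per kilobase of mappable sequence and scaled to the number of reads. An entry whose read density was not above the background of gene deserts holds the word Inactive, which gives no level and is not a value of 0. No values per library were used, so the differences below have no standard deviation, no test and no replicate check. The table gives no read counts, and none were computed here. Values are rounded to 2 decimals, and a ratio is given with the limits that rounding allows.

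Ubiquitin is passed from an activating enzyme (E1) to a conjugating enzyme (E2) and then, with the help of a ligase (E3), to a protein that is often marked in this way for the proteasome. Most Trim proteins carry a RING finger, B-box and coiled coil and can act as ligases on their own, whereas Fbxo proteins bring substrates to the Skp1 and Cul1 complex through an F-box, and Asb proteins bring them to Cul5 and the elongins B and C through a SOCS box. In muscle, Trim63 (MuRF1) and Fbxo32 (atrogin-1) are the best known members, because both are induced when fibres waste.

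The myoblast markers Myod1, Myf5, Des, Cdh15 and Itga7 were all active, from 2.39 to 72.45 RPKmM. Of the differentiated muscle markers, Myog was at 2.39 and Acta1 at 6.85, with Tnnt3 at 0.83, Ckm at 0.2, Myh4 at 0.14 and Mybpc2 at 0.02 RPKmM. Of 9 entries of markers of other cell types, 1 was active, Pecam1 at 0.01.

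110 of the 156 entries were active, 70.5%, and 46 were inactive; over all entries of the file 70.2% were active. The median of the active members was 0.95 RPKmM with quartiles at 0.182 and 1.68, beside 0.87 with quartiles at 0.22 and 2.0 for all other active entries. 51 members were at 1 RPKmM or above, 32.7%, against 32.3% of the table. 21 were active but below 0.1 RPKmM, 13.5%, against 13.0% of the table. Each of these shares is near that of all entries, so nothing about the members is read from them.

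By family, Fbxo had 40 of 47 entries active (85.1%) with a median of 1.0 RPKmM, Trim 56 of 86 (65.1%) with a median of 0.955, and Asb 14 of 23 (60.9%) with a median of 0.49 RPKmM, beside 70.2% and 0.87 over all entries. Trim and Asb lie near that share, and no difference between families was tested. Highest were Trim59 at 11.85, Trim35 at 11.16, Trim28 at 8.58, Trim27 at 6.65 and Trim8 at 6.29 RPKmM, all of the Trim family. The most active Fbxo gene, Fbxo30, reached 5.3 and the most active Asb gene, Asb5, reached 4.64. No member was listed at 0, and the lowest active value was 0.01, held by entries of all 3 families.

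**Figure D1:**
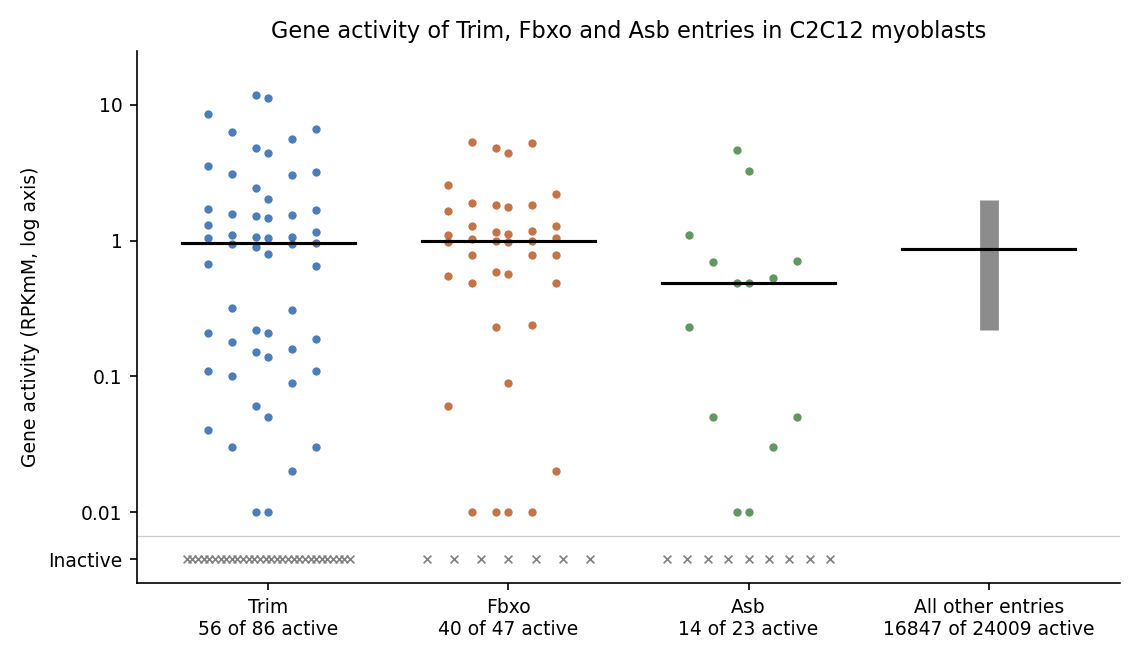
Gene activity (RPKmM, log axis) of each Trim, Fbxo and Asb entry; points are active entries, crosses are entries listed as inactive, and horizontal lines are medians of the active entries. The grey bar spans the quartiles of all other active entries (0.22 to 2.0), and the active members of each family extend both above and below it.

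The ligases of muscle wasting stood far apart from each other. Trim63, which ubiquitinates myosin heavy chain and other thick filament proteins, was active at 0.03 RPKmM, a level that only 10.5% of all active entries fell below. Fbxo32, whose known targets include MyoD and the translation factor eIF3f, was at 1.0 RPKmM, above 54.0% of active entries. The Fbxo32 value was 33.3 times the Trim63 value, with rounding limits of 28.4 and 40.2. Trim63 lies on the plus strand at chr4:133871035-133885544 and Fbxo32 on the minus strand at chr15:58011634-58046433 (mm9, gene bounds of GENCODE vM1), and neither had another gene of the table overlapping it on its strand. Of the regulators known to act on both genes, Foxo1 was at 0.92, Foxo3 at 1.35, Foxo4 at 0.96 and the glucocorticoid receptor gene Nr3c1 at 1.62 RPKmM, while Klf15 was inactive.

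The relatives of Trim63 were both listed above it, though Trim54 was still well below the median of 0.87 RPKmM. Trim55 (MuRF2), which binds titin and microtubules in the forming sarcomere, was at 1.47 RPKmM, 49.0 times Trim63 (rounding limits 41.9 to 59.0). Trim54 (MuRF3), a microtubule-stabilising member of the same class, was at 0.15 RPKmM, 5.0 times Trim63 (4.14 to 6.2) and 9.8 times below Trim55 (9.45 to 10.2). The closest relative of Fbxo32, Fbxo25, was at 0.55 RPKmM, so that Fbxo32 was 1.82 times as high (1.79 to 1.84). The order was thus Trim55, Fbxo32, Fbxo25, Trim54 and Trim63, and rounding alone could not exchange any neighbours in it.

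Among the other ligases known from muscle, Fbxo30 (MUSA1), a ligase of the atrophy programme restrained by BMP signalling, was the highest with entries at 5.22 and 5.3 RPKmM. Trim32, which is mutated in a limb girdle muscular dystrophy, was at 1.1 RPKmM. Trim72 (MG53), a membrane repair protein of muscle, was at 0.65. Asb2, whose muscle form targets filamins, was at 0.03 RPKmM, the same listed value as Trim63. Fbxo40, which ubiquitinates the insulin receptor substrate IRS1 in muscle, was inactive. Together with Trim54, Trim55, Trim63 and Fbxo32, these muscle ligases had 10 entries, of which 9 were active (90.0%, beside 70.2% of all entries) and 5 were at 1 RPKmM or above, beside 32.3% of all entries at that level. The share depends on the genes chosen. Of the muscle-enriched Asb genes described below it counts only Asb2, and those genes had 4 of 12 entries active (33.3%).

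**Figure D2:**
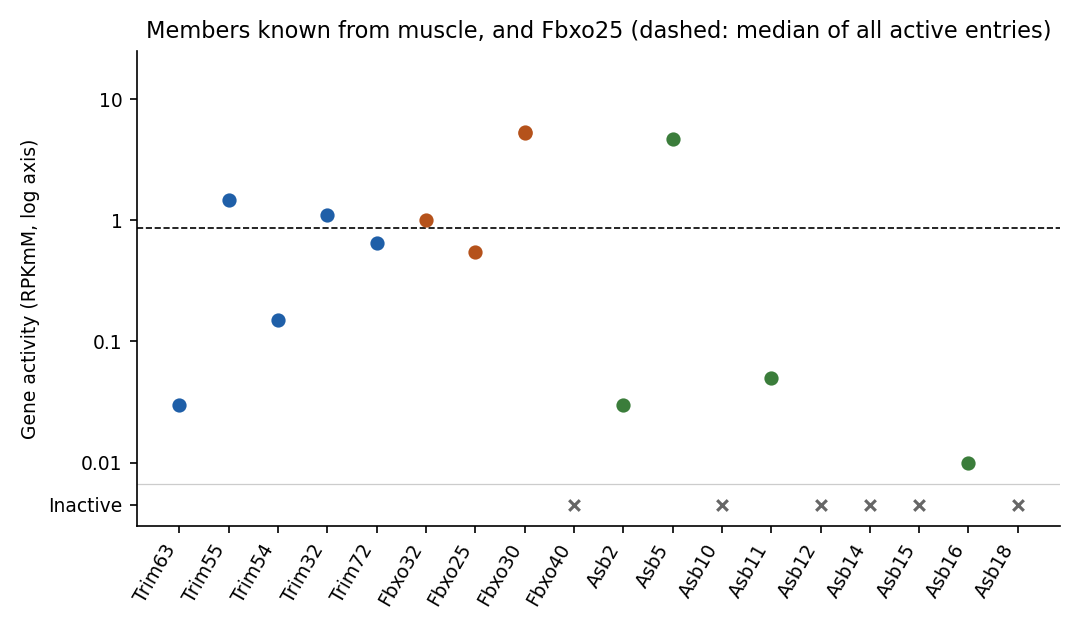
Gene activity (RPKmM, log axis) of members known from muscle and of Fbxo25; each point is an entry, crosses mark genes with all entries inactive, and the dashed line is the median of all active entries (0.87). Fbxo30, Asb5, Trim55, Trim32 and Fbxo32 lie above the line and Trim63, Asb2, Asb11 and Asb16 lie at 0.05 or below.

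The promoters of Trim63 and Trim54 are shown because they hold short motifs that regulators of muscle genes are known to bind, while both genes were well below the median of 0.87 RPKmM. Each sequence is the 250 bases before the start, 5′ to 3′ on the strand of the gene, from RefSeq's promoter table and placed in mm9 by exact match. Capitals mark CAGCTG (an E-box of the kind bound by MyoD), TATAAA (the TATA box) and GTAAACA (the forkhead motif), in either orientation. Trim63 lies at chr4:133870785-133871034 and Trim54 at chr5:31418735-31418984, both on the plus strand.
Trim63: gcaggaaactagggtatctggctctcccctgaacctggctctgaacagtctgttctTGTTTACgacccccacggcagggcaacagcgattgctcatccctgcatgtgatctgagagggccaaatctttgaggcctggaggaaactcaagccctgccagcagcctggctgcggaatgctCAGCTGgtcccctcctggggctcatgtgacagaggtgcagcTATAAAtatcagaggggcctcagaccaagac
Trim54: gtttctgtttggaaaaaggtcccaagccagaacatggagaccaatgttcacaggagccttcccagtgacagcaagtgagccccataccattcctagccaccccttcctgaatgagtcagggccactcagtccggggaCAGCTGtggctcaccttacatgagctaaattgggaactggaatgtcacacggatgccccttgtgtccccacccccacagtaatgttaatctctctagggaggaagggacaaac
The Trim63 stretch held 1 forkhead motif on the opposite strand, 1 E-box and 1 TATA box in that order towards the start. The Trim54 stretch held 1 E-box and neither of the others. It ends at chr5:31418984, whereas the gene bound of GENCODE vM1 is at 31419085, so the bases directly before that bound are not in it. The Trim63 stretch ends directly before its gene bound. Over windows from 250 bases before to 50 bases after the start, on both strands, CAGCTG occurred in 16.7% of 19381 promoters of the table's genes, TATAAA in 9.9% and GTAAACA in 2.85%. Among the 9 promoters of 7 muscle ligase genes that were matched, without Fbxo32 and Trim55, 6 promoters of 5 genes held CAGCTG (66.7%, both of Fbxo40 among them), 1 held TATAAA (11.1%) and 1 held GTAAACA (11.1%). CAGCTG was in 28.1% of the promoters of all members, in 27.5% of those of active members and in 29.7% of those of inactive members. Over the table it was in 15.8% for active and 19.0% for inactive genes. Among active members it was in 18.8% of promoters below 0.1 RPKmM and in 39.5% at 1 or above. A match is a description of letters and was not tested as a binding site.

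The Asb genes were described by where they are known to be used, and the groups were not tested against each other. The 9 known to be enriched in striated muscle had 12 entries, of which 4 were active (33.3%, beside 70.2% of all entries): Asb5 at 4.64, Asb11 at 0.05, Asb2 at 0.03 and Asb16 at 0.01 RPKmM. Asb10, Asb12, Asb14, Asb15 and Asb18 were inactive in all their entries. Of the 11 entries of the other Asb symbols 10 were active (90.9%) with a median of 0.51 RPKmM, led by Asb8 with entries at 3.28 and 1.09, and followed by Asb7 at 0.71, Asb6 at 0.69, Asb3 at 0.53 and Asb1 with both entries at 0.49. Asb13 was at 0.23, Asb17os at 0.05 and Asb17 at 0.01, and Asb9 was inactive. Asb5 was thus the exception in the muscle group, 155 times the value of Asb2 (rounding limits 132 to 186) and above 91.5% of active entries of the table. Asb11 and Asb16 begin 3.08 kb after the end of Piga (2.14 RPKmM) and 3.56 kb after BC030867 (1.32), genes on the same strand, and the part of reads that run past those ends in the low values of Asb11 and Asb16 was not tested.

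Asb5 is shown because its start carries TATAAA on both strands and it was the most active Asb gene. It lies on the plus strand, and the stretch before the first of its 3 starts is chr8:55635434-55635683 (mm9); capitals mark TATAAA or its reverse complement.
Asb5: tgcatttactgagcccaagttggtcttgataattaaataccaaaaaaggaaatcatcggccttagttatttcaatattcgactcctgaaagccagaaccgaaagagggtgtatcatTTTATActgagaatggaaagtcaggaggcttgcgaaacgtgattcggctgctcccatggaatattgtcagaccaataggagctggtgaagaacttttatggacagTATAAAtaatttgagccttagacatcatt
5 of the 12 promoters of the muscle-enriched Asb genes held TATAAA (41.7%, against 9.9% of all promoters). Besides the first promoter of Asb5 they were those of Asb14, Asb15 and Asb18, all inactive, and of Asb16 at 0.01 RPKmM. The promoters of the other Asb5 starts held none. Of the 12 promoters 0 were CpG-rich, meaning a ratio of observed to expected CpG above 0.6 and a GC content above 50%. The Asb5 stretch had 6 CpG and a GC content of 39.2%.

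The Fbxo genes were mostly active at intermediate levels. After Fbxo30 came Fbxo11 at 4.79, a ligase of BCL6 that is conserved from worm to human, and Fbxo5 at 4.4, known as Emi1, the inhibitor of the anaphase-promoting complex that keeps cyclins stable through S phase. Fbxo45, an atypical F-box protein of the synapse, was at 2.58 and Fbxo22 at 2.2 RPKmM. Fbxo5 is 6.44 kb long and begins 6.29 kb after the end of Mtrf1l (2.67 RPKmM) on the same strand. Fbxo4, a cyclin D1 ligase, was at 0.98 and begins 2.46 kb after the end of AW549877 (2.12) on its strand. The part of these upstream genes in both values was not tested. Of the other cell-cycle members, Fbxo31, also linked to cyclin D1, at 0.57, and Fbxo43 (Emi2), known from the arrested egg, was inactive.

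5 Fbxo genes share the FBA domain, which in several of them binds sugar chains of glycoproteins, and their levels ranged widely. Fbxo17 was at 1.27 in both entries and Fbxo6 at 0.78 in all 3, while Fbxo2, best known from brain, was at 0.02, Fbxo44 at 0.01 in all 3 entries, and Fbxo27 was inactive in both. Fbxo44 ends 0.66 kb before the start of Fbxo6 on the same strand, so neighbours in the genome were listed at 0.01 and 0.78. Inactive besides these were Fbxo15, known from embryonic stem cells, and Fbxo39, Fbxo40 and Fbxo41. Fbxo24 was at 0.06 RPKmM, but it is overlapped on its strand by Pcolce at 7.28, and their reads cannot be told apart where they overlap. The remaining Fbxo genes with active entries ran from 0.01 for Fbxo47 to 1.89 for Fbxo3.

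Trim genes were grouped by the domain at the C-terminal end, which largely decides what they bind. The classes are small, and their counts stand beside 70.2% active and a median of 0.87 RPKmM over all entries. All 6 entries of class C-VI, with a PHD finger and bromodomain that read chromatin, were active: Trim28 (KAP1), the corepressor of KRAB zinc finger proteins, was at 8.58, Trim33 at 2.04, and Trim24 at 0.9 and 0.95, whereas Trim66, known from testis, was at 0.02 and 0.03. Class C-VII, with NHL repeats, had 8 of 9 entries active with a median of 1.34, including Trim3 at 3.52 and 4.4, Trim2 from 0.8 to 1.69 and Trim32 at 1.1, while Trim71, the embryonic Lin-41, was inactive. Class C-V, with no further domain, had 2 of 7 entries active, both high, Trim8 at 6.29 and Trim56 at 5.62. Class C-II is the MuRF group above with 3 of 3 active. In class C-I, microtubule-binding proteins, 5 of 9 entries were active: Trim46 at 0.95, 1.04 and 1.07 and Trim36 at 0.22 and 0.18, with Trim9 and Trim67, both of neurons, inactive. Class C-III has 1 entry, Trim42 of testis, which was inactive.

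Class C-IV, whose PRY-SPRY domain is shared with many antiviral Trim proteins, was the largest, with 24 of 41 entries active (58.5%) and a median of 0.485 RPKmM. Without the genes listed as near-identical copies, whose levels are uncertain, 19 of 28 entries were active (67.9%) and the median was 1.07. How alike the listed genes are was not measured, and none of their entries was above 0.11 RPKmM. Its most active genes were Trim35 at 11.16, Trim27 at 6.65, Trim16 at 3.2, Trim47 at 3.08, Trim11 at 3.06 and Trim41 at 2.42, and its lowest were Trim14 and Trim17 at 0.01. Among the genes of no such class, Trim59, a membrane-anchored protein linked to proliferating cells, was at 11.85 and Trim23, which has an ARF domain, at 4.82, followed by Trim37, the ligase mutated in Mulibrey nanism, at 1.3 and Trim44 at 0.67. Trim13 was at 0.21 and Trim45 at 0.16 and 0.14, and Trim29, of epithelia, was inactive. Trim80, which was placed in no class, was inactive.

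**Figure D3:**
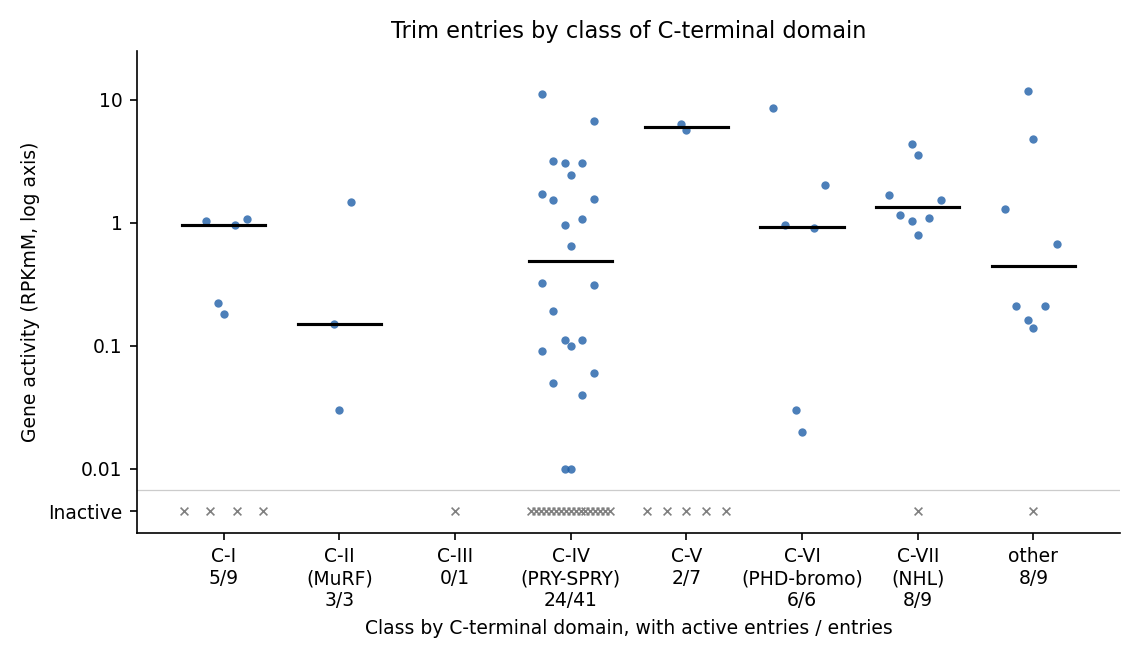
Gene activity (RPKmM, log axis) of Trim entries by class of C-terminal domain, with active entries over all entries under each class; points are active entries, crosses inactive ones and lines medians. Inactive entries are most numerous in class C-IV, where 24 of 41 entries were active with a median of 0.485 (1.07 without near-identical copies), and all 6 entries of class C-VI were active.

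Trim47 and Trim65 overlap on the minus strand of chromosome 11 and were listed at 3.08 and 1.7 RPKmM, and the reads of the overlap cannot be assigned to one of them. Trim16 overlaps Fbxw10 (0.02 RPKmM) on its strand, and Trim34a overlaps Trim34b and Gm15133, both inactive. In all, 8 of the 121 members placed on the genome were overlapped on their strand by another gene of the table, and 5 of these were active. 17 active members had a gene of the same strand ending within 10 kb before their start, and for 6 of them that gene was at 1 RPKmM or above. Trim69, at 0.1, begins 7.62 kb after B2m at 5.85 RPKmM; Trim3, at up to 4.4, begins 0.632 kb after Arfip2 at 1.27.

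The Trim genes known to be induced by interferon, among them sensors and restriction factors against viruses, had 14 entries, of which 9 were active (64.3%, beside 70.2% of all entries) with a median of 0.11 RPKmM. 8 of these entries belong to genes listed as near-identical copies, whose levels are uncertain and whose likeness was not measured. Of the 6 others 5 were active, with a median of 0.96. Trim56 at 5.62 and Trim26 at 1.57 were the only ones of them at 1 or above, and Trim25, the RIG-I ligase, was at 0.96. Trim21, the cytosolic antibody receptor, was at 0.19, Trim12c at 0.11 in both entries, Trim30d at 0.05, Trim34a at 0.04 and Trim14 at 0.01. Trim5, Trim12a, Trim30a, Trim34b and Trim38 were inactive.

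Several of these genes lie in a row, and the counts of each row stand beside 70.2% active over all entries. On chromosome 7, at chr7:111367307-111683875 (mm9), 10 Trim genes stand within 317 kb, the inactive pseudogene Trim30e-ps1 among them. Of the 10, 3 were active, Trim34a, Trim12c and Trim30d, none above 0.11 RPKmM. On chromosome 17, 5 Trim genes lie within 73.1 kb and Trim26 was the active one. Trim75, Trim60 and Trim61 on chromosome 8 were inactive, and of Trim43a, Trim43b and Trim43c on chromosome 9 Trim43a was active at 0.09. Of Trim58, Trim17 and Trim11 on chromosome 11, Trim58 was inactive, Trim17 was at 0.01 and Trim11 at 3.06. Many of the chromosome 7 and chromosome 9 genes were listed by symbol as near-identical copies, and how alike they are was not measured. Only uniquely mapped reads were counted, so the levels of such copies are uncertain; 5 of their 13 entries were active (38.5%), from 0.04 to 0.11 RPKmM.

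**Figure D4:**
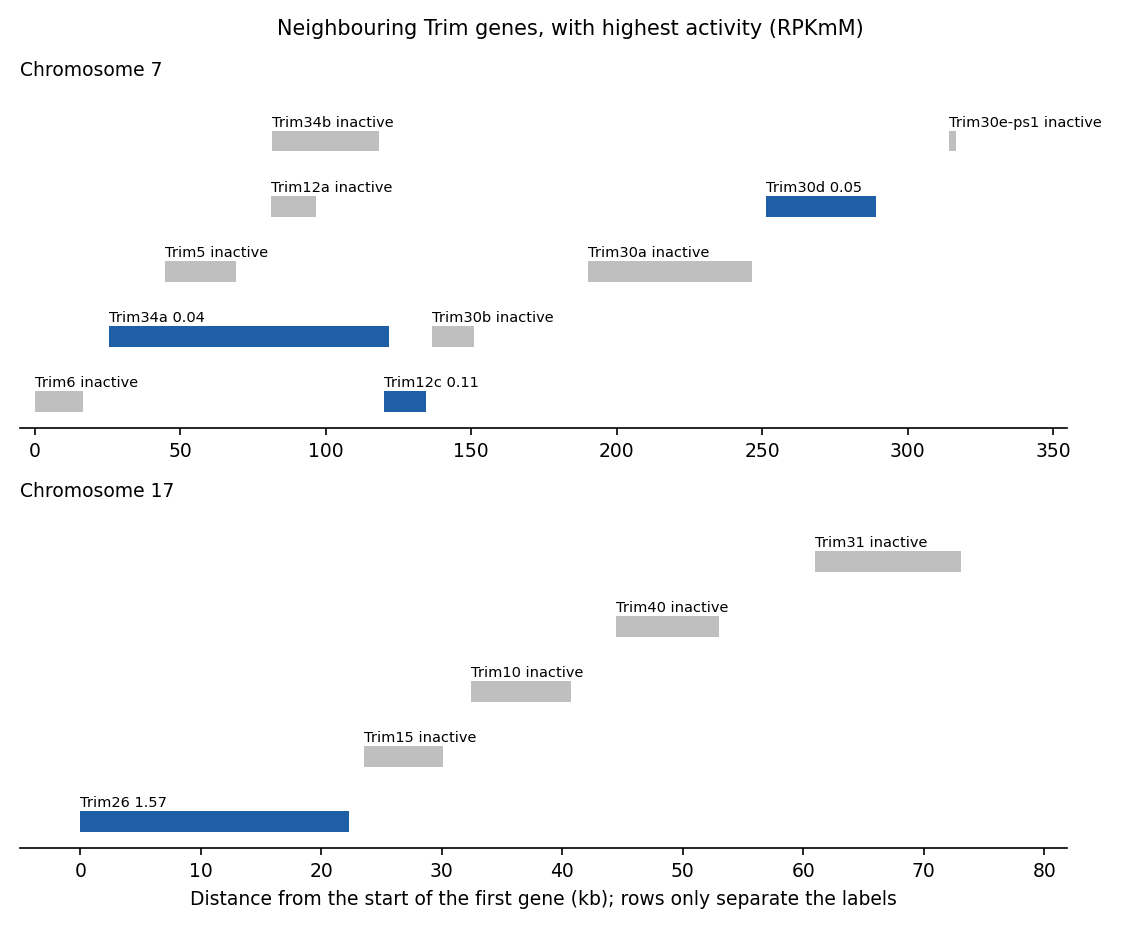
Positions of neighbouring Trim genes on chromosomes 7 and 17, as the distance in kb from the start of the first gene; blue genes were active, with the highest RPKmM beside the name, and grey genes inactive. The active genes on chromosome 7 reach at most 0.11, and Trim26 on chromosome 17 is at 1.57.

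The promoters of 3 interferon-inducible Trim genes are shown because they share a motif with genes that answer interferon. Capitals in these stretches of 250 bases before the start mark GAAANNGAAA, the core of the interferon-stimulated response element, or its reverse complement TTTCNNTTTC, as well as CAGCTG and TATAAA on either strand. Trim26 is on the plus strand at chr17:36973841-36974090, Trim30a on the minus strand at chr7:111613708-111613957 and Trim30d on the minus strand at chr7:111656364-111656613 (mm9).
Trim26: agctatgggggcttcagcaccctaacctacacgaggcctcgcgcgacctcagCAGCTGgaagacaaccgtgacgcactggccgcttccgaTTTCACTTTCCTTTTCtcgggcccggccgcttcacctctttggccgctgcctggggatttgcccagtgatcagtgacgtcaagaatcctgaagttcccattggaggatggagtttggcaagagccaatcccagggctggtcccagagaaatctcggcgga
Trim30a: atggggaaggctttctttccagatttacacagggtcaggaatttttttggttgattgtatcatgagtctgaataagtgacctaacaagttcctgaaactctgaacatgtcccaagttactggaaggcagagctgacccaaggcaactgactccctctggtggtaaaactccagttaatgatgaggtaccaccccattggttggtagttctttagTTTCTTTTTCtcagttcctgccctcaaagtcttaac
Trim30d: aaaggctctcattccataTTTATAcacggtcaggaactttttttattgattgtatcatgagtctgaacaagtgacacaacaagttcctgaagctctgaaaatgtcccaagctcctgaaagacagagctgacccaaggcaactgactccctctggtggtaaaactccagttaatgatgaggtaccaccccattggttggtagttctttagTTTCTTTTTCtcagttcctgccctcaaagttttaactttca
Trim26 holds 2 overlapping matches to the response element in a stretch with 15 CpG, and was at 1.57 RPKmM. Trim30a and Trim30d each hold 1 match close to the start, in stretches with 0 and 1 CpG, and Trim30a was inactive and Trim30d at 0.05. The stretch before the other start of Trim30a, which is not printed, holds no match in these 250 bases. Both genes are on the list of near-identical copies. Over the windows that reach 50 bases past the start, 9 of 13 promoters of interferon-inducible Trim genes held the motif (69.2%), as did 14 of 128 promoters of all members (10.9%) and 3.19% of all promoters of the table. 7 of the 9 belong to genes on the list of near-identical copies, which may share promoter sequence, and how alike these promoters are was not measured; of the 5 promoters of the other interferon-inducible Trim genes 2 held it.

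CpG content of the promoter went with activity among the members as it did in the whole table. Promoters could be matched for 95 of the 123 symbols, 128 sequences in all, of which 55 were CpG-rich (43.0%, against 49.2% over the table). Of 91 promoters of active members 51 were CpG-rich (56.0%) and of 37 promoters of inactive members 4 were (10.8%); over all genes of the table the shares were 61.9% and 17.0%. Members at 1 RPKmM or above had 31 of 43 CpG-rich promoters (72.1%) and active members below 0.1 had 3 of 16 (18.8%). Fbxo promoters were CpG-rich in 65.9% of cases, Trim in 35.4% and Asb in 22.7%. Across the 64 active member genes with a promoter, the rank correlation of CpG ratio and activity was 0.485, a description over genes that share 1 pooled measurement. The inactive genes with a CpG-rich promoter were Trim9, Trim67, Trim71 and Fbxo39.

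Trim59, the most active member, and Trim28, the most active of class C-VI, show the CpG-rich kind, and neither stretch contains the motifs above, so no letters are in capitals. Trim59 is on the minus strand at chr3:68848665-68848914 and Trim28 on the plus strand at chr7:13609251-13609500 (mm9). The starts are those of RefSeq, and the last bases of the Trim59 stretch, as of the Trim26 stretch, lie inside the gene bounds of GENCODE vM1. The Trim54 stretch, in contrast, ends short of its gene bound.
Trim59: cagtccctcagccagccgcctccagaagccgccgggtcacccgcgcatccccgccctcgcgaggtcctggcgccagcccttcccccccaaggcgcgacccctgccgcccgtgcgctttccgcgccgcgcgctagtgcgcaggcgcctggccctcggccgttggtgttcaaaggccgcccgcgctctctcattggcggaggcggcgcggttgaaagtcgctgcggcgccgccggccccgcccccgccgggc
Trim28: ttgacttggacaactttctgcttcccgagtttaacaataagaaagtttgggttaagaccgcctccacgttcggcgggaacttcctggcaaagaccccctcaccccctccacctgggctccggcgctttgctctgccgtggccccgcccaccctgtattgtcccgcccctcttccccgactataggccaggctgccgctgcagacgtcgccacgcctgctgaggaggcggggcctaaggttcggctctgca
The Trim59 stretch has 38 CpG and a GC content of 77.6% and the Trim28 stretch 17 CpG and 62.0%, beside 4 CpG and 56.8% in the Trim63 stretch and 2 CpG and 52.8% in that of Trim54.

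**Figure D5:**
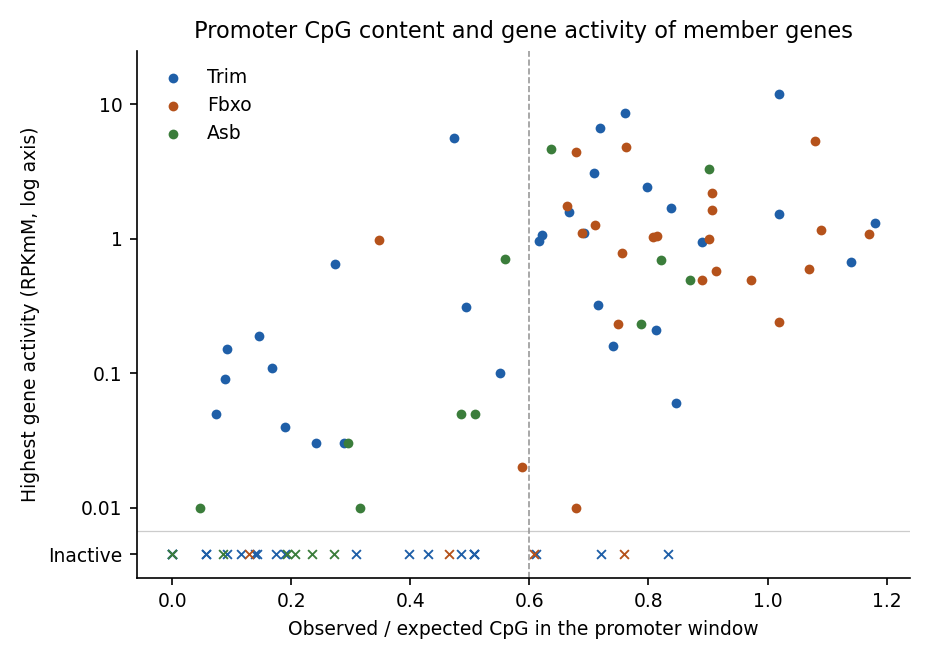
Ratio of observed to expected CpG in the promoter window against the highest gene activity (RPKmM, log axis) of each member gene; crosses are inactive genes, colours are families and the dashed line is at 0.6. For genes with several promoters the highest ratio is plotted; the rank correlation over the 64 active genes is 0.485.

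Genes with several entries were called alike, active or inactive, in all of them, while the listed values often differed. Of 26 such genes, 19 had active entries, 0 mixed active with inactive entries, and 6 had the same value in every entry. The entries of Asb8, at 3.28 and 1.09 RPKmM, differed by 3.01 times (rounding limits 2.99 to 3.03), and those of Trim2, from 0.8 to 1.69, by 2.11 times (2.09 to 2.13). The listed values of the other active ones differed by at most 1.5 times, in Trim66, where rounding allows up to 2.33; for Fbxo44, listed at 0.01 throughout, it allows up to 3.0. Entries of a gene that overlap can count the same reads, so they were not taken as independent measurements. Active members had a median length of 21.4 kb and inactive members of 14.8 kb, beside 24.1 and 14.5 kb for active and inactive genes of the table.

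The partners that the Fbxo and Asb proteins need were active in every entry listed. Of the scaffolds, Cul1, which takes the F-box proteins, was at 3.69 and Cul5, which takes the Asb proteins, at 1.85. All 8 scaffold entries were active, from Cul9 at 0.04 to Cul3 at 3.74 RPKmM. Skp1a, the adaptor of F-box proteins, was at 5.71, Tceb1 and Tceb2, the elongins C and B, at 2.45 to 2.62, Rbx1 at 1.79 and Rnf7 at 1.3. All 19 entries of the genes of cullin neddylation, with Cand1 and Cand2, which bind cullins that lack Nedd8, 11 of 11 of the COP9 signalosome, which removes Nedd8, and 16 of 16 of E1 and E2 enzymes were active, with medians of 1.37, 1.56 and 2.7 RPKmM.

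Over all entries 70.2% were active with a median of 0.87 RPKmM. Of the families most like the members, the other F-box genes (Fbxl and Fbxw) had 35 of 50 entries active with a median of 1.52 RPKmM, against 40 of 47 and 1.0 for Fbxo. The other SOCS-box genes (Socs, Spsb and Wsb) had 16 of 16 active with a median of 2.53, against 14 of 23 and 0.49 for Asb. The RING genes named Rnf had 85 of 96 active with a median of 1.3, against 56 of 86 and 0.955 for Trim. These are counts over genes from 1 pooled measurement and were not tested.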

How the data were processed

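GRO-seq reads of 2 untreated C2C12 libraries were processed by the authors: base calling with CASAVA 1.8, mapping to mm9 with Bowtie2 (version not given in the sources used here), uniquely mapped reads only, reads at rRNA and tRNA repeats removed, and both libraries pooled. The deposited unit is RPKmM, an RPKM over mappable bases, with the call of active genes made by Poisson statistics against gene deserts. In 7208 cells the word Inactive stands in place of a number, so code could not test the unit of this column, and reading it as RPKM rests on the header and the methods. Pooling hides the spread between libraries. Near-identical copies were listed by symbol and their likeness was not measured. Reads shared by such copies do not map uniquely, and the effect on their listed values was not tested. No depth per library was used, so no counting interval was computed.

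Members were found by symbol. Counts, medians, quartiles and ratios were computed with Python 3.11.15, numpy 2.4.6 and pandas 2.3.3, drawn with matplotlib 3.10.9, and the counting was tested on simulated data. Gene bounds came from GENCODE vM1 on NCBIM37 (mm9), where 121 of 123 symbols matched. Promoters, from 250 bases before to 50 after the start, came from RefSeq (GRCm38.p6), were matched by RefSeq identifier and were located in mm9 by exact match. Any member could be named. Described in full were Trim63, Fbxo32, their close relatives and the other muscle genes, the 5 most active genes of each family, genes with mixed entries and genes whose entries differed by over 2 times; non-members came from fixed lists. The members and lists were chosen with earlier results of these data known. Alternatives were 1 entry per symbol, NM entries only, thresholds of 0.01 and 0.1 RPKmM, no near-identical copies and a geometric mean with a pseudocount of 0.01; after seeing the data, members of at least 10 kb, no overlapped members, no Asb17os, and medians of class C-IV and interferon-inducible Trim without near-identical copies were added.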

Additional observations from a re-analysis of the deposited data

How the results depend on the processing

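Of 106 alternative values, 98 stayed within 1.5 times the main value. Many of these could not move. No active member was listed below 0.01, so that threshold leaves every member count and median as it was. Dropping Trim copies cannot change Fbxo or Asb values, and dropping Asb17os cannot change Trim or Fbxo values. The count is therefore no measure of robustness. With a threshold of 0.1 RPKmM, 9 Asb entries counted as active in place of 14, and 1 entry of the muscle-enriched Asb genes, Asb5, in place of 4. With a geometric mean (pseudocount 0.01) in place of the median, the centre of the active entries was 0.555 RPKmM for all members, 0.615 for Trim, 0.62 for Fbxo and 0.267 for Asb; a geometric mean gives weight to the entries at 0.01 to 0.05, which a median does not. The ratio of the members' centre to that of the other active entries stayed within 1.5 times in all 10 alternatives but changed sides: 1.09 in the main analysis, 0.892 with the threshold of 0.1 and 0.913 with the geometric mean. Without near-identical copies the median was 1.07 in place of 0.485 for Trim class C-IV and 0.96 in place of 0.11 for interferon-inducible Trim, an alternative chosen after seeing the data. No paired analysis was possible because the table holds 1 value pooled over both libraries, and for the same reason no library could be left out. Rounding to 2 decimals leaves values at 0.01 to 0.03 without a finer order, and the reads behind them were not computed.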

Other observations

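Relatives of the Trim genes without a Trim symbol were also in the table. Mid1, the ligase mutated in Opitz syndrome, had entries at 0.64, 1.13 and 1.47 RPKmM and its paralog Mid2 was at 1.16. Pml, the organiser of nuclear bodies, was at 1.5. Cmya5 (myospryn) and Fsd2, both of striated muscle, were at 0.02 and 0.01 RPKmM, and Mefv and Rfpl4 were inactive.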
